A study of Mus musculus with 4 samples.

Results

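The genes described here are 10 of the 26322 genes measured in MC38 cells: the EGF receptor family genes Egfr, Erbb2 and Erbb3, the ligand genes Areg, Ereg, Hbegf and Tgfa, and 3 genes for proteins that bind the receptor or its adaptors, Eps8, Errfi1 and Sh3kbp1. They were taken by gene symbol, with earlier results of these data known, and all 10 were listed. Expression was read by 3′ mRNA sequencing of MC38, a mouse colon cancer cell line. Cells had been electroporated with Cas9 and either a non-targeting guide (labelled WT, the sgNT cells of the study) or a guide against Cbfb (labelled CbfbKO, the sgCbfb cells), and were collected a week or more later. There were 2 WT and 2 CbfbKO libraries. By the study's methods both groups had received Cas9 and differed in the guide. The labels themselves name only WT or CbfbKO and a replicate number. The edited cells were a population made with a single Cbfb guide. Nothing in the labels says whether replicates came from separate electroporations, so p-values measure the spread between these libraries, which may be technical.

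CBFβ is the partner subunit of the RUNX transcription factors and raises their affinity for DNA. The EGF receptor family are cell-surface tyrosine kinases that pair up when a ligand binds and then pass signals to the ERK and PI3K pathways. Amphiregulin, epiregulin, HB-EGF and TGF-alpha are made as membrane proteins and are released by metalloproteases, so a cell can stimulate itself or its neighbours. In the gut epithelium these ligands act in growth and repair. EPS8 couples active receptors to Rac and to actin, SH3KBP1 (CIN85) binds the ubiquitin ligase CBL and takes part in receptor internalisation, and ERRFI1 (MIG6) inhibits the active receptor kinase.

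Libraries held between 3189035 and 3907936 reads on genes, recovered from the deposited log2 CPM (log2 of the reads scaled to the library's total). Cbfb had 295 and 285 reads in WT and 125 in each CbfbKO library, and its mRNA was 41.5% of the WT level. The label colorectal cancer was checked against marker genes. All 9 epithelial markers had at most 5 reads in each library, with 0 reads in all libraries for Krt18, Cldn7 and Vil1, and their summed level was 1.57 to 1.80 CPM. The mesenchymal markers summed to between 2187 and 2597 CPM, mostly Vim (2113 to 2530 CPM). Reads per library were 84 to 119 for Cdh2 and 120 to 153 for Fn1. They were only 8 to 13 for Col1a1, 4 to 16 for Pdgfrb and at most 2 for Col1a2, so the markers were not uniformly high. Of the leukocyte markers, 4 of 5 had 0 reads in every library and the fifth had 1 read in 1 library. The 3 endothelial markers summed to at most 0.600 CPM. Few or no reads do not show that a marker gene is silent, as described below for Rab7. Tests were made with limma (two-sided, Benjamini-Hochberg adjusted p under 0.05) on the 12207 genes that reached a log2 CPM of 0 in 2 or more libraries. In CbfbKO cells 192 genes were higher and 153 lower, a split of 55.7% higher that became 41.8% in voom with median-of-ratios scaling.

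The 4 ligands among the 10 genes share an EGF-like domain, a short fold held by 6 cysteines that contacts the receptor. The coding sequence of this stretch is shown for Areg and Ereg, the genes whose expression fell in CbfbKO cells, and for Tgfa, which had no reads. The sequences are from the GENCODE M21 transcripts of GRCm38, 5′ to 3′, with the codons of the 6 cysteines in capitals.
Areg: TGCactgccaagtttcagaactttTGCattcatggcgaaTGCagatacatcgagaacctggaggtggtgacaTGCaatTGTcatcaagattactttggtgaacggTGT
Ereg: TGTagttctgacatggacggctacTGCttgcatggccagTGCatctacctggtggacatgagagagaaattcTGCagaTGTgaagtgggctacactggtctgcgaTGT
Tgfa: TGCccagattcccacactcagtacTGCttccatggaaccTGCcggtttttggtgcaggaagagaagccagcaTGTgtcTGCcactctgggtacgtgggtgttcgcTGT
Each stretch is 108 bases and encodes 36 residues, at residues 139 to 174 of 248 in amphiregulin, 61 to 96 of 162 in epiregulin and 46 to 81 of 159 in TGF-alpha. Between successive cysteines lie 7, 4, 10, 1 and 8 residues in all 3 proteins, and in HB-EGF as well. The Areg and Ereg stretches encode 12 identical residues of 36 (33.3%), cysteines included, against 16 of 36 (44.4%) for Areg and Hbegf and likewise 16 for Ereg and Hbegf, not all at the same positions. Reads in 3′ libraries come from transcript ends and not from these codons.

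The promoter of Areg is shown because Areg had the largest fold change of the 10 genes. The RefSeq window on GRCm38.p6 runs from 250 bases before the transcript start to 50 after it, at chr5:91139349-91139648 on the plus strand. The 8 letters TGACGTCA, the cyclic AMP response element, are in capitals.
Areg promoter: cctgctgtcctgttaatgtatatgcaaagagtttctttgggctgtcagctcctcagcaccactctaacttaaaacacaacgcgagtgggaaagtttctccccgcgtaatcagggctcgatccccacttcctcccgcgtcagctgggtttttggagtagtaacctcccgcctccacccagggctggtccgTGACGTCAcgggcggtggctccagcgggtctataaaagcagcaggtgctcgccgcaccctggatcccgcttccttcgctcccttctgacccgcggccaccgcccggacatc
The element lies 61 to 54 bases before the start. It reads the same on both strands and occurs in 1.79% of 32851 promoter windows of this length. One window of Errfi1, which did not pass the test, holds it as well, 51 to 44 bases before that start. The RUNX words TGTGGT and TGCGGT were searched on both strands and have no match in this window, against at least 1 match in 22.4% of all windows. RefSeq windows were available for 6 of the 10 genes, Areg, Egfr, Erbb2, Errfi1, Sh3kbp1 and Tgfa, with 10 windows in all. A RUNX word was found in 2 of these 10, one window of Errfi1 and one of the 4 windows of Sh3kbp1. A match, or its absence, describes letters in the window and not binding.

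Of the receptor genes, Erbb2 was the only one with enough reads to be tested. Egfr, the gene of the EGF receptor itself (chromosome 11, 16752203 to 16918158, plus strand, GRCm38), had 0 reads in all 4 libraries. A count of 0 allows up to 3 reads, which is 0.768 to 0.941 CPM in a single library and 0.217 CPM over the 13828279 reads of all libraries. These limits cover counting error only. A 3′ library counts reads at annotated transcript ends, so a transcript that ends elsewhere could be missed. Rab7, the gene of a late endosome GTPase that nearly all cells use, had only 1 and 2 reads in WT and 5 and 3 in CbfbKO cells (named after its values were seen), so few or no reads do not show that a gene is silent in these cells.

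Erbb2 encodes a receptor that binds no known ligand and signals as the partner of other family members. It had 47 and 35 reads in WT and 49 and 46 in CbfbKO, or 13.8 and 10.5 CPM against 12.5 and 14.4 CPM. The groups overlapped. Its log2 fold change was 0.15, with a 95% interval from -0.343 to 0.645 (limma, adjusted p = 0.840). Changes within these bounds remain possible. The interval is not adjusted over genes and is not a limit of detection. Erbb2 lies on chromosome 11 (98412470 to 98437716, plus strand), and its last 9 exonic bases are also exonic in Mien1, the antisense gene that meets it end to end. Mien1 had 145 to 244 reads per library, and how reads over such an overlap were counted is not given in the sources used here. The study used MC38 cells carrying human HER2 in other assays, whereas the labels of these libraries name MC38 alone, and whether any Erbb2 read came from such a construct was not tested.

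Erbb3, a receptor with a weak kinase that binds neuregulins, had 0 and 1 reads in WT and 4 and 0 reads in CbfbKO cells. It was below the minimum for testing, and every library but CbfbKO replicate 1 was within the 3 reads that a count of 0 allows. The other receptor of the family, Erbb4, had 0 reads in all libraries. The reads of Egfr, Erbb3 and Erbb4 together thus came to 5 in 4 libraries.

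**Figure D1:**
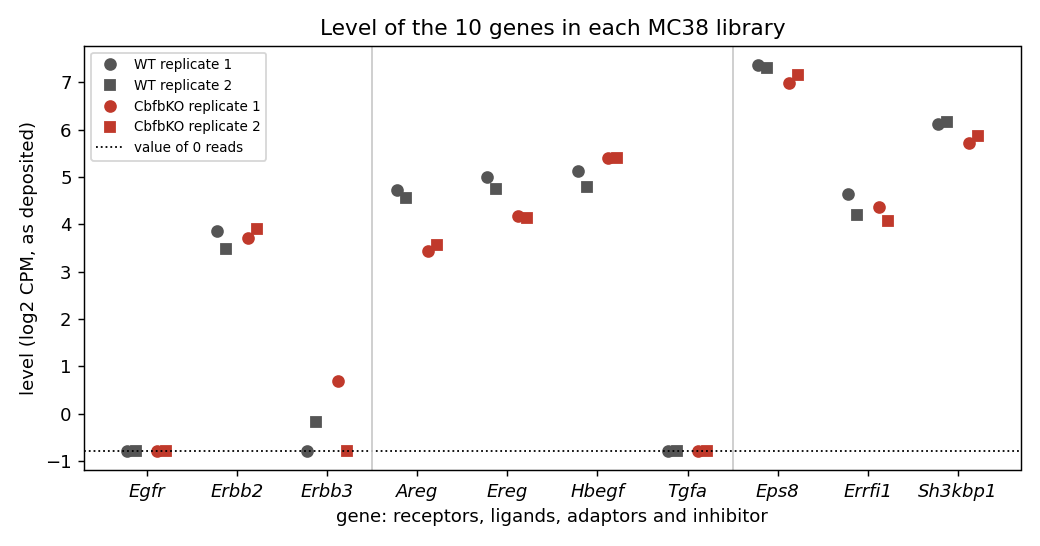
Level of each of the 10 genes (y axis, log2 CPM as deposited) in the 2 WT libraries (grey) and the 2 CbfbKO libraries (red), with circles for replicate 1 and squares for replicate 2. Egfr and Tgfa sit on the dotted line that marks 0 reads, and the CbfbKO points lie below both WT points for Areg, Ereg, Eps8 and Sh3kbp1 and above them for Hbegf.

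Of the 4 ligand genes, Areg and Ereg fell in CbfbKO cells, Hbegf did not pass the test with higher values in both CbfbKO libraries, and Tgfa had no reads. Among the 10 genes, 7 passed the minimum and were tested. Of these 7, 2 were lower and 0 higher past the threshold, where 1.25% of all tested genes were lower and 1.57% higher. At an unadjusted p under 0.05 there were 5 of the 7, against 1820 of all tested genes (14.9%). Libraries of the 2 groups did not overlap for 5 of the 7 genes, 4 with lower and 1 with higher CbfbKO values. Over all tested genes this was so for 16.8% with lower and 27.4% with higher CbfbKO values. The median log2 fold change of the 7 was -0.25 and that of all tested genes 0.04. Since the 10 genes were chosen with earlier results of these data known, these counts and shares are a description. A difference from the shares of all genes cannot be read as a trait of the family. In bulk RNA, fewer expressing cells and less mRNA per cell cannot be told apart.

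Areg encodes amphiregulin, a low-affinity ligand of the EGF receptor. Its level was 25.9 and 22.8 CPM in the WT libraries (88 and 76 reads) and 10.2 and 11.3 CPM in the CbfbKO libraries (40 and 36 reads). Both CbfbKO libraries lay below both WT libraries, with no overlap. Areg fell by 1.13 on the log2 scale in CbfbKO cells, with an SE of 0.21 and a 95% interval from -1.57 to -0.70 (limma, adjusted p = 0.00154, lower in 2 of 2 libraries). This left 45.5% of the WT level. The call was lost with no filter on low values (adjusted p = 0.260), with quantile normalization (0.0627) and with a constant prior variance (0.115). It was also lost without WT replicate 1 (adjusted p = 0.0614), without CbfbKO replicate 1 (0.525) and without CbfbKO replicate 2 (0.489), and held without WT replicate 2 (0.0186). Over all 14 alternatives the adjusted p of Areg lay between 2.00e-05 and 0.525 and its log2 fold change between -1.23 and -1.04. With limma, 0 of all tested genes passed when either CbfbKO library was left out, with 1104 genes at an unadjusted p under 0.05 without replicate 1 and 1169 without replicate 2. In a fit without 1 library, the spread comes from the 2 libraries of the other group alone, and the single library left is assumed to vary like them.

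Ereg encodes epiregulin, which activates EGFR and ERBB4. It stood at 31.2 and 26.4 CPM in WT (106 and 88 reads) and at 17.4 and 16.9 CPM in CbfbKO cells (68 and 54 reads). Its groups did not overlap either. Ereg fell by 0.72 on the log2 scale, with an SE of 0.18 and a 95% interval from -1.09 to -0.35 (limma, adjusted p = 0.0242), leaving 60.6% of the WT level. The call was lost with no filter on low values (adjusted p = 0.432), with quantile normalization (0.142) and with a constant prior variance (0.214). Each library left out in turn also removed it, with adjusted p-values of 0.241 without WT replicate 1, 0.0708 without WT replicate 2, 0.551 without CbfbKO replicate 1 and 0.511 without CbfbKO replicate 2. Over all 14 alternatives the adjusted p lay between 0.00519 and 0.551 and the log2 fold change between -0.84 and -0.60.

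Hbegf, on chromosome 18 (36504927 to 36515805, minus strand), encodes HB-EGF, which binds EGFR and ERBB4 and also heparan sulphate. It was measured at 34.5 and 27.0 CPM in WT (117 and 90 reads) and at 41.5 and 41.4 CPM in CbfbKO libraries (162 and 132 reads). Both CbfbKO libraries were above both WT libraries, which themselves differed more from each other than the CbfbKO libraries did. The log2 fold change was 0.43, with a 95% interval from 0.13 to 0.74 before adjustment over genes (limma, adjusted p = 0.137). The value was 0.26 without WT replicate 2 and 0.61 without WT replicate 1. No alternative processing brought Hbegf past the threshold, with adjusted p-values from 0.0699 to 0.865.

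Tgfa, the gene of TGF-alpha on chromosome 6 (86195223 to 86275719, plus strand), had 0 reads in all 4 libraries, with the same limits as Egfr. Of the other ligand genes of the family, Egf, Btc and Epgn had at most 5 reads in any library.

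The mix of ligand mRNA is described by ratios within each library, which do not depend on scaling to library totals. The ratios were formed with the changes of Areg and Ereg known and were not tested. There were 0.752 and 0.844 Areg reads for each Hbegf read in WT cells and 0.247 and 0.273 in CbfbKO cells. For Ereg the same ratios were 0.906 and 0.978 in WT and 0.420 and 0.409 in CbfbKO. Areg per Ereg was 0.830 and 0.864 in WT and 0.588 and 0.667 in CbfbKO. None of these 3 ratios overlapped between the groups. For the ratios to Hbegf this was fixed in advance. Areg and Ereg were lower, and Hbegf higher, in both CbfbKO libraries without overlap. Areg per Ereg follows from the other ratios, so the 3 are not independent.

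Of the reads on Areg, Ereg and Hbegf together, Hbegf had 37.6% (exact 95% interval 32.2% to 43.3%) and 35.4% (29.6% to 41.7%) in the WT libraries. In the CbfbKO libraries its share was 60.0% (53.9% to 65.9%) and 59.5% (52.7% to 66.0%). The intervals cover counting error only. Over 9520 genes with 10 or more reads, replicates differed by more than counting error (chi-square divided by its degrees of freedom, 1.58 in WT and 2.15 in CbfbKO), so the intervals are too narrow for a comparison of the groups. Summed, the 3 ligand genes gave 91.6 and 76.2 CPM in WT and 69.1 and 69.6 CPM in CbfbKO. An exact permutation test of 2 libraries against 2 cannot give a p under 0.333.

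**Figure D2:**
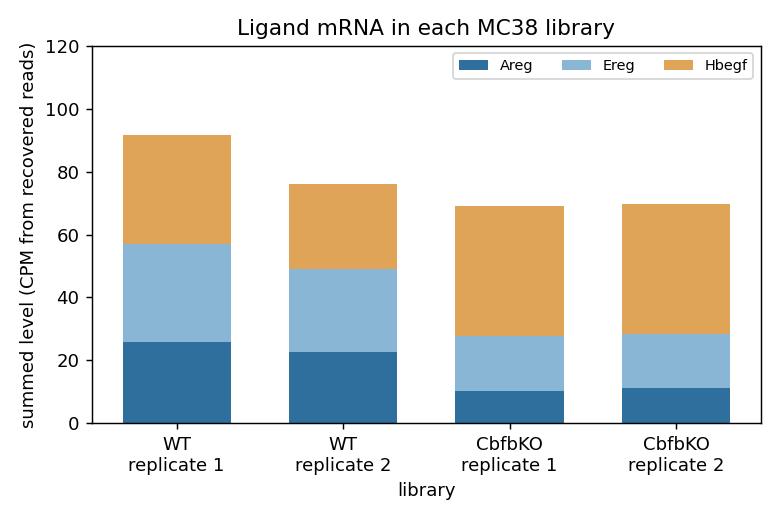
Summed level of Areg, Ereg and Hbegf (y axis, CPM from recovered reads) in each of the 4 libraries (x axis), 1 bar per library with 1 colour per gene. Hbegf makes up 35.4% to 37.6% of the bar in WT and 59.5% to 60.0% in CbfbKO libraries.

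Areg and Ereg are neighbours. On GRCm38 chromosome 5 the ligand genes Epgn, Ereg, Areg and Btc form a cluster of 375.5 kb (91027464 to 91402994), with Ereg from 91074622 to 91093646 and Areg from 91139599 to 91148432, both on the plus strand and with starts 65 kb apart. Near its start, Ereg shares 141 exonic bases with an antisense gene, Gm19610, which had 0 reads in all libraries, and Areg overlaps no other gene's exons. The genes around the cluster were looked at after the values of Areg and Ereg were known. Within 500 kb on either side, 19 genes were listed and 7 tested. Of the 4 tested genes outside the ligand family, 1 passed the threshold, the chemokine gene Cxcl1, whose start lies at -248.4 kb relative to that of Areg.

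Cxcl1 had 275 and 317 reads in WT and 128 and 110 in CbfbKO cells, without overlap, and fell by 1.37 on the log2 scale (SE 0.12, limma, adjusted p = 4.82e-08). Cxcl5 had 16 and 9 reads in WT against 3 and 8 in CbfbKO cells, a log2 fold change of -1.03 that did not pass (limma, adjusted p = 0.280). Mthfd2l, the gene between Cxcl2 and Epgn, had 21 to 28 reads per library and a log2 fold change of -0.23 (95% interval -0.83 to 0.37). Btc, at the far end of the cluster, had 2 and 4 reads in WT and 1 and 5 in CbfbKO cells, too few to place its change more closely than between -1.23 and 1.02. Apart from Areg and Ereg, whose values led to the region, 5 genes were tested there, and 1 of them was lower past the threshold, where 1.25% of all tested genes were.

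**Figure D3:**
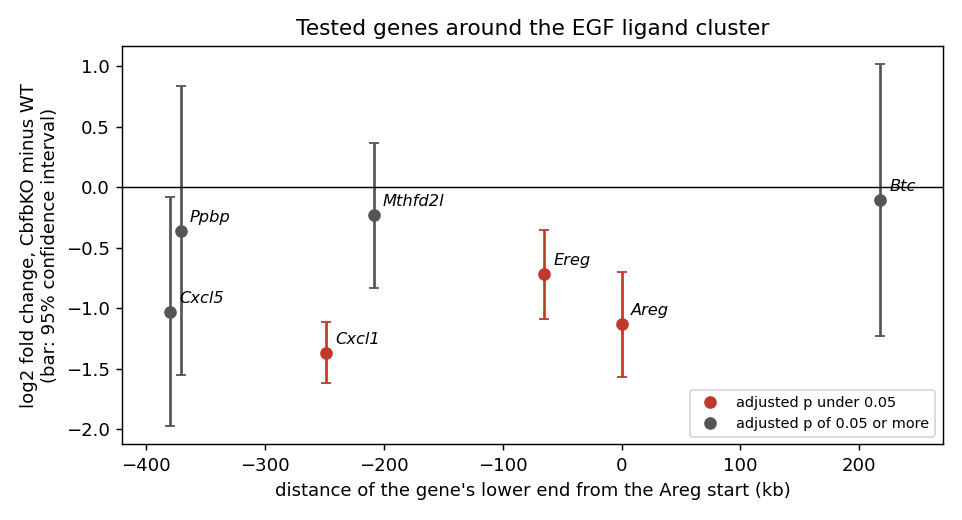
Log2 fold change of the 7 tested genes around the EGF ligand cluster (y axis, CbfbKO minus WT, bars for 95% confidence intervals) against the distance of each gene's lower end from the Areg start (x axis, kb). Cxcl1, Ereg and Areg (red) passed the threshold, at -1.37, -0.72 and -1.13, and the other 4 genes (grey) did not.

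None of the genes of receptor-binding proteins, 0 of 3, passed the threshold. Eps8 (chromosome 6, 137477245 to 137654876, minus strand), whose protein joins ABI1 and SOS1 to activate Rac and also caps actin filaments, had the highest level of the 10 genes. It was at 163 and 156 CPM in WT (555 and 521 reads) and at 126 and 142 CPM in CbfbKO libraries (494 and 454 reads), without overlap. Its log2 fold change was -0.25, with a 95% interval from -0.43 to -0.08 before adjustment over genes (limma, adjusted p = 0.125), or 84.0% of the WT level.

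Sh3kbp1 (chromosome X, 159627272 to 159978069, plus strand) was at 69.2 and 70.8 CPM in WT (235 and 236 reads) and at 51.95 and 57.4 CPM in CbfbKO (203 and 183 reads). These groups did not overlap, and the log2 fold change was -0.35 with an SE of 0.11 (limma, adjusted p = 0.0940). Over the alternatives the adjusted p of Sh3kbp1 ranged from 0.0392 to 0.552 and that of Eps8 from 0.0360 to 0.809. Under voom on the recovered reads with median-of-ratios scaling both genes passed, Sh3kbp1 with -0.40 (adjusted p = 0.0392) and Eps8 with -0.30 (adjusted p = 0.0360). Under each of the other 13 alternatives neither passed.

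Errfi1 (chromosome 4, 150853919 to 150868892, plus strand), which EGF receptor signalling itself induces, was at 24.4 and 17.7 CPM in WT (83 and 59 reads) and at 20.0 and 16.3 CPM in CbfbKO (78 and 52 reads). The groups overlapped, and in each the library labelled replicate 1 was the higher. The log2 fold change of -0.20 had a 95% interval from -0.62 to 0.22 (limma, adjusted p = 0.722), and it changed sign, to 0.03, without WT replicate 1.

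**Figure D4:**
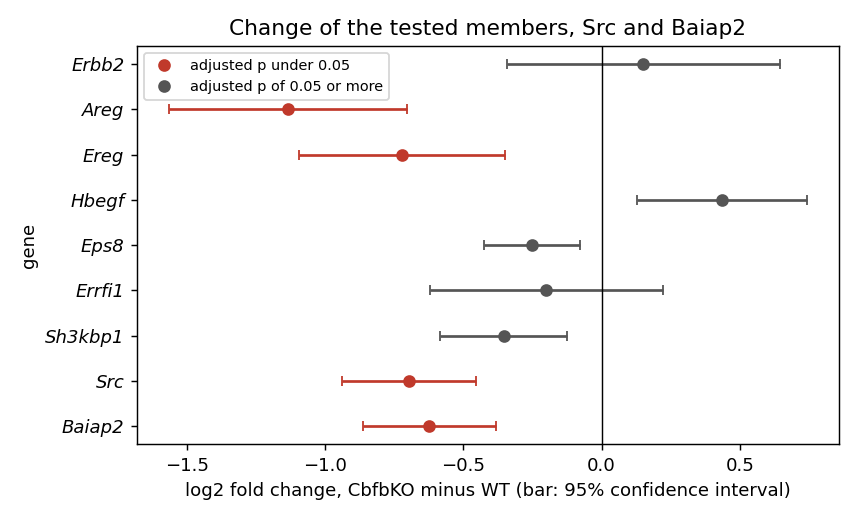
Log2 fold change (x axis, CbfbKO minus WT, bars for 95% confidence intervals that are not adjusted over genes) of the 7 tested genes among the 10, and of Src and Baiap2, the genes of the wider pathway that passed. Areg, Ereg, Src and Baiap2 (red) passed the adjusted threshold, and Hbegf is the gene with the largest positive value, 0.43.

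The wider pathway was followed in 75 further genes in 6 lists, of which 67 were tested. Past the threshold, 2 were lower (Src and Baiap2) and 0 higher, where 1.25% of all tested genes were lower and 1.57% higher. Fold changes were positive for 40 and negative for 27 of the 67, against 6958 and 5249 of all tested genes, and the median of 0.04 equalled that of all tested genes to this precision. Src, the gene of the SRC tyrosine kinase that is activated beside the receptor, was at 76.6 and 68.7 CPM in WT and at 46.8 and 42.3 CPM in CbfbKO (260 and 229 against 183 and 135 reads). The groups did not overlap. Src fell by 0.70 on the log2 scale (SE 0.12, limma, adjusted p = 5.74e-04) and was the only 1 of 18 adaptor and signalling genes to pass, with Grb2, Shc1, Sos1 and Gab1 among those that did not. Its call was lost with no filter on low values (adjusted p = 0.384), with quantile normalization (0.0627) and with a constant prior variance (0.211). It was also lost without CbfbKO replicate 1, where the log2 fold change was -0.77 (adjusted p = 0.458), and without CbfbKO replicate 2, where it was -0.62 (0.511), within a range of 1.43e-06 to 0.511 over the 14 alternatives.

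Baiap2 encodes IRSp53, a membrane-bending protein that binds EPS8. It was at 77.2 and 98.7 CPM in WT (262 and 329 reads) and at 58.3 and 54.6 CPM in CbfbKO (228 and 174 reads), without overlap. Baiap2 fell by 0.62 on the log2 scale (SE 0.12, limma, adjusted p = 0.00192), as 1 of 7 tested genes among the Eps8 partners and paralogs. The call was lost with no filter on low values (adjusted p = 0.700), with quantile normalization (0.135) and with a constant prior variance (0.333). It was also lost without WT replicate 2, where the log2 fold change was -0.45 (adjusted p = 0.131), and without CbfbKO replicate 1 or 2, where it was -0.67 and -0.58 (0.551 and 0.511), within a range of 3.51e-06 to 0.700 over the 14 alternatives. Rac1, a GTPase downstream of EPS8, had the next smallest p in this list, with a log2 fold change of 0.15 (limma, adjusted p = 0.257).

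None of the ligand-shedding genes passed, 0 of 7 tested. Adam17, the protease that releases amphiregulin, epiregulin and HB-EGF, was at 120 and 136 CPM in WT and at 132 and 121 CPM in CbfbKO, a log2 fold change of -0.01 with a 95% interval from -0.19 to 0.18. The 2 shedding genes with the smallest p-values were Adam9, at -0.55 (limma, adjusted p = 0.395), and Adam15, at 0.15 (adjusted p = 0.50). Genes of receptor endocytosis and degradation gave 0 of 20 past the threshold. Epn3, an endocytic adaptor with 5 and 4 reads in WT and 17 and 11 in CbfbKO, had the largest difference among them at 1.22 (limma, adjusted p = 0.130), and Rab5a, a GTPase of early endosomes, had 0.37 (adjusted p = 0.193). Of the 11 inhibitor genes outside the 10 genes, 0 passed, the smallest p-values being those of the phosphatase gene Ptpn12 (0.31, limma, adjusted p = 0.212) and of Lrig1, which promotes receptor degradation (-0.33, adjusted p = 0.249). Among the remaining receptor and ligands, 4 of 8 were tested and 0 passed. The neuregulin gene Nrg1 had 16 reads in each WT library and 6 and 12 in CbfbKO (log2 fold change -0.82, limma, adjusted p = 0.345), and Nrg2 had 6 reads in each WT library and 8 and 1 in CbfbKO (-0.63, adjusted p = 0.635).

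The order of levels within the 10 genes had Eps8, Sh3kbp1 and Hbegf at its top in both groups. Hbegf, Ereg and Areg kept this order among themselves. In CbfbKO cells the mean of Errfi1 stood above those of Ereg and Areg, and that of Erbb2 above that of Areg only. Levels are compared in CPM, since a 3′ library gives about 1 read position per transcript and reads do not grow with transcript length. Transcripts that end away from their annotated ends could be undercounted, as described above. The order is therefore one of reads and may differ from that of mRNA amounts. In WT cells the mean CPM ran from Eps8 (160) and Sh3kbp1 (70.0) through Hbegf (30.7), Ereg (28.8), Areg (24.4) and Errfi1 (21.1) to Erbb2 (12.2). In CbfbKO cells it ran from Eps8 (134) and Sh3kbp1 (54.7) through Hbegf (41.4), Errfi1 (18.1), Ereg (17.2) and Erbb2 (13.5) to Areg (10.8). The ranges of the 2 libraries overlapped between Hbegf and Ereg and between Areg and Errfi1 in WT cells, so these neighbours did not differ beyond their spread. In CbfbKO cells the ranges overlapped between Errfi1 and Ereg but not between Hbegf and Errfi1, nor between Erbb2 and Areg. Over the 4 libraries, the tested genes nearest to Eps8 by the distance between centred log2 CPM values were Rfx7 (0.0176), Arl8b (0.0254) and Plk2 (0.0261). With 4 libraries such nearness is common, since 89 genes lay within 0.1 of Eps8. No such comparison was made for Egfr, which had no reads.

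**Figure D5:**
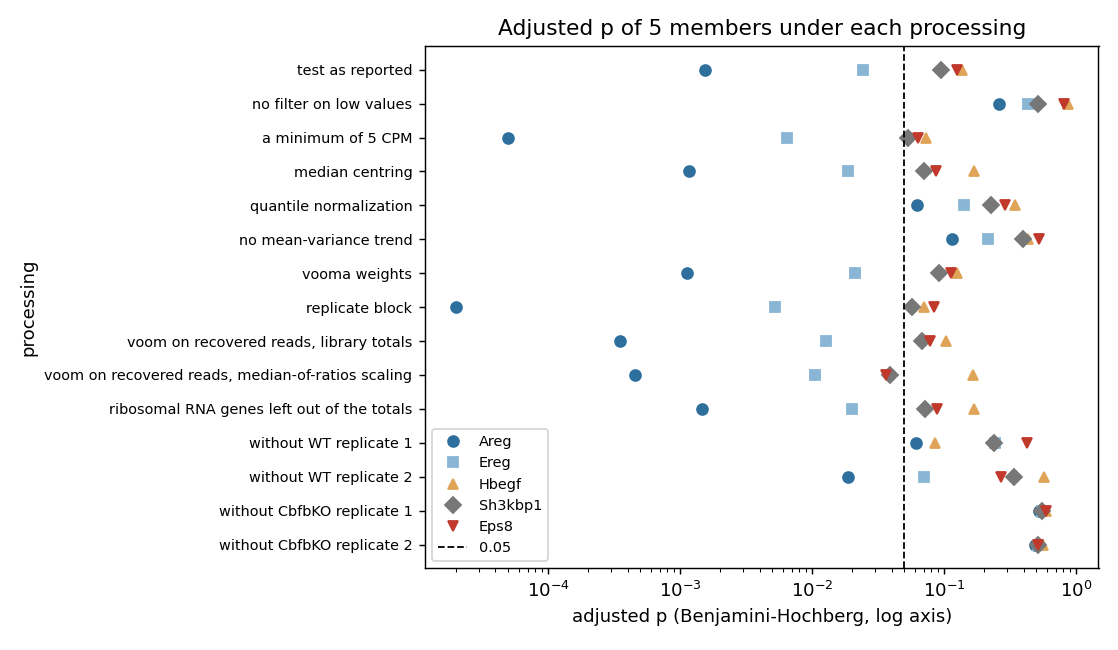
Adjusted p (x axis, log scale) of Areg, Ereg, Hbegf, Sh3kbp1 and Eps8 in the test as reported and in the 14 alternatives (y axis), with a dashed line at 0.05. Areg lies left of the line in 8 of the 14 alternatives and Ereg in 7, and all 5 genes lie right of it when either CbfbKO library is left out.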

How the data were processed

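3′ mRNA libraries (QuantSeq) of MC38 cells, 2 labelled WT and 2 labelled CbfbKO, were analysed, grouped by their labels. According to the submitters' processing notes, reads were trimmed with cutadapt 1.9, aligned to mm10 with HISAT2 2.1.0 and counted with featureCounts 2.0.1 (the study's methods name an earlier release). The annotation release, strand use and treatment of multi-mapping reads are not given in the sources used here. The authors deposited log2 CPM values (counts scaled to the library total) for 26322 genes, scaled to library totals with a prior count of about 2 added, so low genes have compressed fold changes. Reads were recovered from the steps between values, 100% of them within 0.1 of a whole read.

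Differences were tested in limma 3.58.1 (R 4.3.3) (lmFit, then eBayes with its trend option), in place of the study's voom, which takes counts. The 12207 genes tested had a log2 CPM of 0 or more in 2 libraries or more. The script was tested on simulated data. Alternatives covered the filter, scaling, variance model, replicate block, single libraries, voom on recovered reads and a threshold of 0.01. The genes, lists and tests were chosen with earlier results of these data known. All 10 genes are named, and of the lists every gene past the threshold or the 2 with the smallest p. Positions are from GENCODE M21 (GRCm38) and promoters from RefSeq (GRCm38.p6). Intervals are at 95%. Figures were drawn with matplotlib 3.10.9.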

Additional observations from a re-analysis of the deposited data

How the results depend on the processing

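Directions of Areg, Ereg, Hbegf, Eps8, Sh3kbp1, Src, Baiap2 and Cbfb were the same under all 14 alternatives. Erbb2 and Errfi1 changed sign when a single library was left out, with ranges from -0.0395 to 0.34 and from -0.43 to 0.0276 on the log2 scale. Causes were not tested.

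Of the 10 genes, 2 were lower past the threshold. The count was 4 in voom with median-of-ratios scaling, 1 at an adjusted p under 0.01, and 0 with quantile normalization, with a constant prior variance in place of the trend (where 1461 of all genes had an unadjusted p under 0.05) and with no filter on low values, where all 26322 genes were tested. It was 0 to 1 with a library left out. The count of higher genes among the 10 was 0 in every alternative.

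Over all genes, against 192 higher and 153 lower, there were 300 higher with a minimum of 5 CPM, 39 and 44 with quantile normalization, 0 and 0 with the constant prior variance, 2 and 53 with no filter, 103 and 97 at an adjusted p under 0.01, and 242 lower in voom with median-of-ratios scaling. Leaving out a library gave 0 to 115 higher and 0 to 86 lower, with 0 of either sign when CbfbKO replicate 1 or 2 was absent.

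With the replicate block, 320 genes were higher and 215 lower, and it changed no call among the 10 genes. Deviations of same-numbered libraries did not correlate over all tested genes (r = -0.00417, as a description). The labels do not say whether such libraries shared a preparation, and a correlation over all genes cannot decide it. At this depth 1 read is 0.256 to 0.314 CPM, so changes of genes with few reads, such as Btc and Erbb3, were not detectable. The pseudocount was fixed by the deposited log2 values.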
